A study of Mus musculus with 6 samples.

Results

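The ephrin ligands are the membrane-bound partners of the Eph receptor tyrosine kinases. The mouse genes Efna1 to Efna5 and Efnb1 to Efnb3 were taken by their gene identifiers from the table of RNA-seq counts after YTHDF2 KD in cerebellar granule cells (GCs), where they are 8 of 53421 rows. All 8 could be tested. Ephrin-A ligands hang on the cell surface by a lipid (GPI) anchor and bind mostly EphA receptors, while ephrin-B ligands span the membrane and bind mostly EphB receptors. A bound receptor signals forward into its own cell, and the ligand signals in reverse into the cell that carries it. In the developing brain this contact signalling steers or repels growth cones, sets up topographic maps and shapes synapses, and proteases that cut the ligand end the contact.

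GCs were dissociated from the cerebella of C57BL/6 pups, given as postnatal day 8 in the labels, and cultured in Neurobasal A-medium with B27. They were infected with lentivirus for one of 2 short hairpin RNAs, shYthdf2 (the KD, 3 libraries) or shCtrl (the control, 3 libraries). YTHDF2 is a protein that binds mRNA carrying N6-methyladenosine (m6A) and promotes its decay, and the comparison asks which mRNAs differ once it is reduced. Both groups went through the infection and a puromycin selection, so no uninfected cells are compared here. Library names carry the numbers 1, 2 and 4 in both groups. The methods call them biological replicates, and the culture or pups behind each number are not given in the sources used here, so p-values measure the spread between these libraries.

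The labels contradict each other on which libraries are the KD. The descriptions and column names give the groups as used here, while the titles and the genotype field call the shYthdf2 libraries wildtype and the shCtrl libraries KDYthdf2. If the titles were right, every direction below would be inverted. Normalized counts (scaled by TMM to 1 library size) of Ythdf2 were 501, 402 and 501 in KD libraries 1, 2 and 4, and 618, 841 and 628 in the controls. Every library named shYthdf2 was below every shCtrl library. The means were 468 ± 56.9 and 696 ± 126 (SD, n = 3 each), so that 67.3% remained. The log2 fold change was -0.57 with a standard error (SE) of 0.16 and an adjusted p of 0.125 in the edgeR test. By number the differences were -0.30, -1.06 and -0.33 on the log2 scale, and without both libraries numbered 2 the log2 fold change was -0.32 (SE 0.07). Ythdf1, the close paralog that was not targeted, was at a log2 fold change of -0.27 (SE 0.11, adjusted p = 0.214 in edgeR) and Ythdf3 at one of 0.15 (SE 0.10, adjusted p = 0.442).

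The libraries held 17246821 to 21546595 counts. Those numbered 2 stood apart from the others. Over log2 normalized counts of the genes tested, which are not independent replicates, the pair numbered 2 correlated at 0.983 with each other, against 0.972 and 0.975 for shYthdf2 library 2 with the others of its group and 0.960 and 0.964 for shCtrl library 2 with its own. With shYthdf2 libraries 1 and 4, shCtrl library 2 correlated at 0.969 and 0.966, slightly above its values for its own group. Libraries 1 and 4 of a group correlated at 0.989 and 0.990, and they still differed by more than counting noise (chi-square per degree of freedom 3.34 and 4.64). Results are therefore given with the libraries numbered 2 and without them. Without them, 2 libraries a group remain that are close to each other, and 52.7% of all genes passed the adjusted threshold in edgeR. The p-values of that fit reflect only the small spread between libraries 1 and 4. The 10 granule neuron markers were all detected, Zic1 with the most counts. Their summed normalized counts were 170233, 161343 and 171937 in KD libraries 1, 2 and 4 and 177456, 187467 and 173976 in the controls. Every KD sum lay below every control sum. Singly, 5 had positive and 5 negative log2 fold changes (median 0.02), and 0 passed the adjusted threshold in edgeR. At an unadjusted p under 0.05 in edgeR, 3 were lower and 0 higher (10.6% and 9.50% of all genes). These were Neurod1 at -0.32, Cntn2 at -0.48 and Cbln1 at -0.64. Markers of other cell types were present too. The 9 oligodendrocyte lineage markers summed to 13769, 18339 and 14224 in the KD libraries and to 5332, 17916 and 5142 in the shCtrl libraries. Markers of astrocytes and Bergmann glia summed to 9995 to 10509 in shYthdf2 and 7874 to 12354 in shCtrl, those of GABAergic interneurons to 13658 to 16247 and 9607 to 12498, and those of microglia to 378 to 1097 and 178 to 761. All 7 GABAergic markers had positive log2 fold changes (median 0.21). In edgeR 2 of them had an unadjusted p under 0.05 (9.50% of all genes as higher), and 0 passed the adjusted threshold. The sums were 743 to 1113 and 942 to 998 for Purkinje cells, 10773 to 11553 and 10137 to 12046 for unipolar brush cells, and 8555 to 9021 and 10757 to 12795 for granule progenitors, where Barhl1, which postmitotic GCs also express, gave most of the counts. Barhl1 was at a log2 fold change of -0.61, while the other 6 of the 7 progenitor markers tested had positive ones (median of the 7, 0.68), among them Atoh1 at 0.78, Mki67 at 0.68 and Top2a at 0.76, and 0 of the 7 passed the adjusted threshold in edgeR, with 1, Barhl1, at an unadjusted p under 0.05. In RNA from whole cultures, fewer cells of a type and less RNA per cell cannot be told apart.

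The ephrin genes lie on 6 chromosomes of GRCm38. Efna1 (89271733 to 89281142), Efna3 (89313899 to 89322965) and Efna4 (89333390 to 89338028) form a cluster on the minus strand of chromosome 3, with 32.8 kb between the first pair and 10.4 kb between the second. Efna2 is on chromosome 10 from 80179482 to 80190010. Efna5, on chromosome 17 from 62604184 to 62881317, spans 277 kb and is the longest of the family. Efnb1 is on chromosome X from 99136130 to 99148991, Efnb2 on chromosome 8 from 8617434 to 8661242 and Efnb3 on chromosome 11 from 69554092 to 69560205.

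What separates the ephrin-B from the ephrin-A ligands is the cytoplasmic tail, and its end is the part that PDZ proteins of reverse signalling hold. The last 30 coding bases of the 3 ephrin-B mRNAs are shown for that reason, from GENCODE M21 on GRCm38, 5′ to 3′ on the transcript strand, with the final codons and the stop codon in capitals. Those of Efnb1 lie on the plus strand at chrX:99147498-99147527, those of Efnb2 on the minus strand at chr8:8620588-8620617 and those of Efnb3 on the minus strand at chr11:69555860-69555889.
Efnb1: agcccggcgaacatcTACTACAAGGTTTGA
Efnb2: agtcctgccaacattTACTACAAGGTCTGA
Efnb3: agccctccgaacatcTATTACAAGGTATGA
Of the 30 bases, 25 were shared between Efnb1 and Efnb2, 26 between Efnb1 and Efnb3 and 24 between Efnb2 and Efnb3. Over the last 99 coding bases the identities were 84.8%, 82.8% and 84.8%. How reads that fit more than 1 of the 3 genes were counted is not given in the sources used here.

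YTHDF2 reads m6A, which is placed mostly on adenosines in a sequence such as GGACT and often near the stop codon. The letters GGACT were searched on the transcript strand of the principal protein-coding transcripts, and the match closest to the stop codon in each ephrin mRNA is shown in capitals with 11 bases on each side. In Efna1, Efna2, Efna3, Efna5 and Efnb2 it lies in the 3 prime UTR and in Efna4, Efnb1 and Efnb3 in the coding sequence.
Efna1, chr3:89272441-89272467, minus strand: ggattggaatgGGACTaaggggcagcc
Efna2, chr10:80189214-80189240, plus strand: gagcccaccgcGGACTtgccttgcatt
Efna3, chr3:89315162-89315188, minus strand: ggcagtgctcaGGACTccctggcccct
Efna4, chr3:89335337-89335363, minus strand: ttatacatggtGGACTggtcaggctac
Efna5, chr17:62607243-62607269, minus strand: atcccaagaagGGACTtgttattggtt
Efnb1, chrX:99147441-99147467, plus strand: aaggtgagtggGGACTacgggcatcct
Efnb2, chr8:8620518-8620544, minus strand: tgggcacgcagGGACTgcctgagcctg
Efnb3, chr11:69555966-69555992, minus strand: gcggggtggtgGGACTgcagacccccc
All 8 ephrin mRNAs held the letters, as did 87.2% of 21725 protein-coding transcripts. The density ran from 1.27 per kb in Efna3 to 2.76 per kb in Efnb1, against a median of 1.02 per kb over all transcripts. A match within 200 bases of the stop codon was found in 5 of the 8 (Efna1, Efna5, Efnb1, Efnb2 and Efnb3) and in 36.2% of all transcripts. A match of letters says nothing on whether the base is methylated in GCs.

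After YTHDF2 KD, 0 of the 8 ephrin mRNAs passed an adjusted p of 0.05 in edgeR's test over 17214 genes, where 0.604% of all genes did. DESeq2 called 1 of the 8 (7.67% of all genes) and limma-voom 0 (0.139% of all genes). With a batch term for the libraries numbered 2 in the edgeR fit, 4 of the 8 passed, where 22.1% of all genes did. At an unadjusted p under 0.05, Efna5 and Efnb3 were higher and Efna2 and Efnb2 lower, 4 of 8 against 20.1% of all genes (9.50% higher and 10.6% lower). For 5 of the 8 the KD libraries lay all above or all below the controls (26.0% of all genes), 2 of them higher (Efna5 and Efnb3, against 12.6% of all genes) and 3 lower (Efna2, Efna3 and Efnb2, against 13.4%). The median log2 fold change of the 8 was -0.25, and that of all genes tested was 0.008. Each class, ephrin-A and ephrin-B, held fold changes of both signs.

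**Figure D1:**
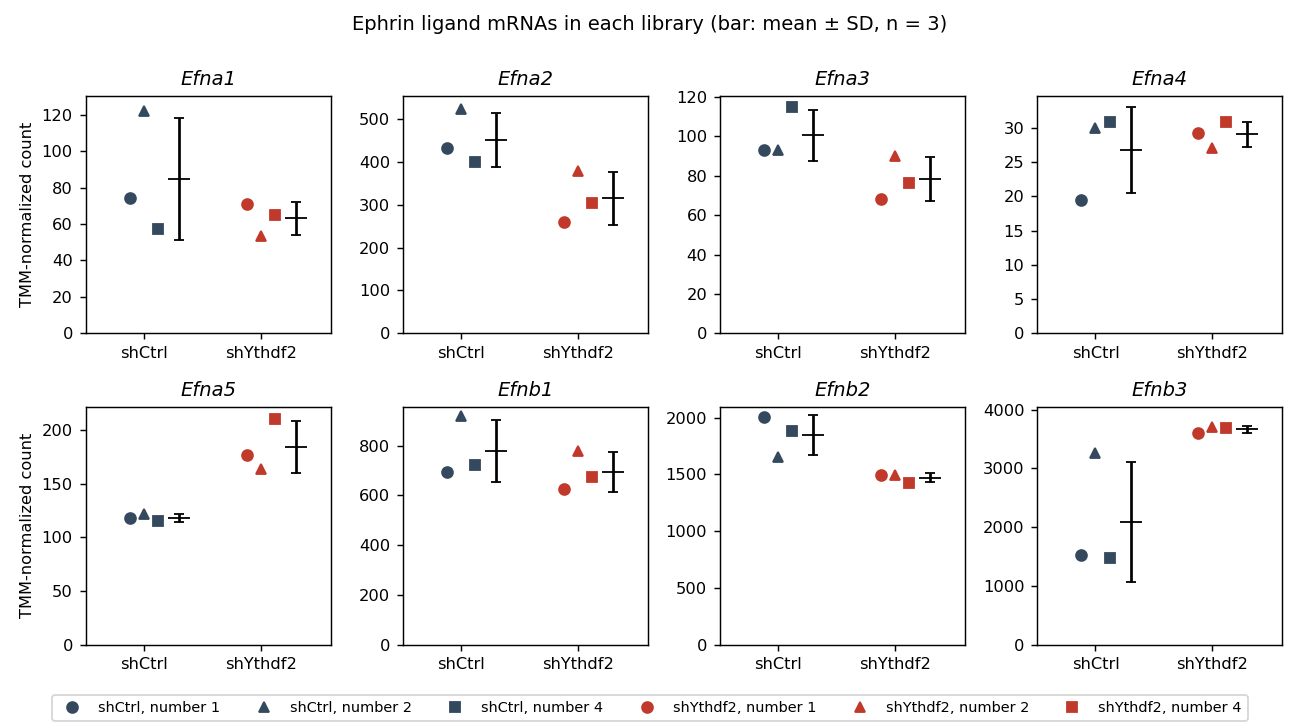
Normalized count of each ephrin mRNA (vertical axis, from 0) in the 3 shCtrl and 3 shYthdf2 libraries, with the symbol giving the library number and the bar the mean ± SD. Efna5 and Efnb3 were higher in every shYthdf2 library than in any shCtrl library, Efna2, Efna3 and Efnb2 lower, and the groups overlapped for Efna1, Efna4 and Efnb1.

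**Figure D2:**
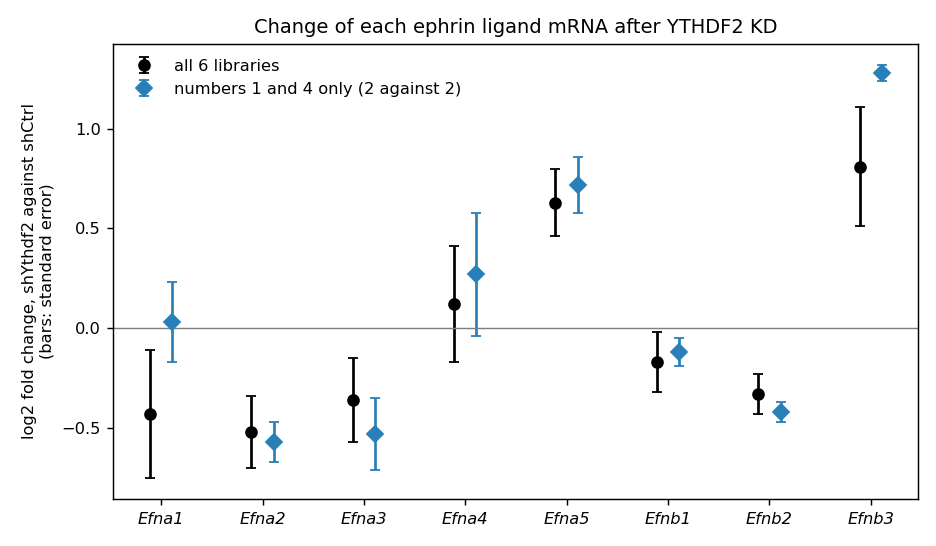
log2 fold change of each ephrin mRNA (vertical axis, shYthdf2 against shCtrl, with its SE) from all 6 libraries and from libraries 1 and 4 alone. Efnb3 stood at 0.81 with all libraries and at 1.28 without those numbered 2, while Efna1 went from -0.43 to 0.03.

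Among the ephrin-B ligands, Efnb3 (ENSMUSG00000003934) had the most counts. Ephrin-B3 is best known as the midline repellent of corticospinal axons and has also been described in myelin as an inhibitor of axon growth. Its normalized counts were 3595, 3709 and 3696 in KD libraries 1, 2 and 4 and 1523, 3267 and 1475 in the controls. The shYthdf2 libraries were nearly equal, whereas shCtrl library 2 lay far above shCtrl libraries 1 and 4 and close to the KD libraries. The means were 3667 ± 62.6 and 2089 ± 1021 (SD, n = 3 each), 176% of the control. This gave a log2 fold change of 0.81 (SE 0.30, adjusted p = 0.191 in edgeR), and its size exceeded that of 90.8% of all genes tested.
The difference between libraries of the same number was 1.24, 0.18 and 1.32 on the log2 scale for numbers 1, 2 and 4. Without both libraries numbered 2 the log2 fold change was 1.28 (SE 0.04, edgeR adjusted p = 5.07e-13), in a comparison of 2 against 2 in which 52.7% of all genes passed. Without shCtrl library 2 alone it was 1.29 (adjusted p = 0.00088 in edgeR, 18.3% of all genes passed). The exact permutation test over all 6 libraries, two-sided, gave p = 0.1, which is the lowest value its 10 splits can reach.

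The oligodendrocyte lineage markers were low in the same shCtrl libraries as Efnb3. Their sum was 5332 and 5142 in shCtrl libraries 1 and 4 and 17916 in shCtrl library 2, and it ran from 13769 to 18339 in shYthdf2. All 9 markers were tested and detected in every library, and the fold changes of 9 of 9 were positive (median log2 fold change 0.67), as were those of 50.8% of all genes. In edgeR 0 passed the adjusted threshold, and 1 had an unadjusted p under 0.05 and was higher, against 9.50% of all genes. Microglial, astrocyte and GABAergic marker sums were lowest in shCtrl libraries 1 and 4 as well. Of the 8 astrocyte and Bergmann glia markers, 7 had positive fold changes, while Slc1a2 went the other way. It had 3032, 1575 and 3080.4 normalized counts in shCtrl libraries 1, 2 and 4 and 878 to 1022 in shYthdf2. Its log2 fold change was -1.44 (adjusted p = 0.0552 in edgeR). The part of other cell types in the Efnb3 difference was not tested. Between the libraries numbered 2, whose oligodendrocyte sums were close, Efnb3 differed by 0.18 on the log2 scale.

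**Figure D3:**
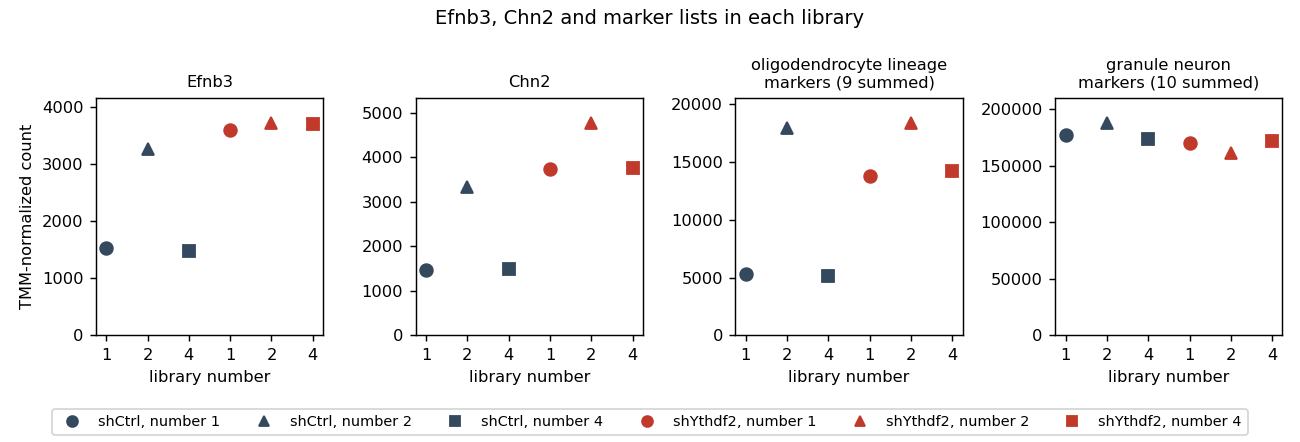
Normalized count (vertical axes, from 0) of Efnb3, of Chn2, and of 2 marker lists summed, in each library (horizontal axis, library number, shCtrl first). Efnb3, Chn2 and the summed oligodendrocyte lineage markers were low in shCtrl libraries 1 and 4 only. The sum of the 10 granule neuron markers ran from 161343 to 171937 in shYthdf2 and from 173976 to 187467 in shCtrl. Of these markers, 3 were lower and 1 higher in every shYthdf2 library than in any control.

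Efnb2 (ENSMUSG00000001300) encodes ephrin-B2, the ligand that marks arterial endothelium and that neurons also use for axon guidance and spine formation. Its normalized counts were 1498, 1491 and 1427 in the KD libraries and 2008, 1658 and 1879 in the controls. All KD libraries were below all controls, and shCtrl library 2 was the lowest control. The means were 1472 ± 39.0 and 1848 ± 177 (SD, n = 3 each), 79.7% of the control. In edgeR the log2 fold change was -0.33 (SE 0.10, adjusted p = 0.143). It was -0.42 (SE 0.05, edgeR adjusted p = 2.74e-06) without the libraries numbered 2, where 52.7% of all genes passed. Without shCtrl library 2 alone it was -0.40 (adjusted p = 0.0184 in edgeR, 18.3% of all genes passed). By number the differences were -0.42, -0.15 and -0.40. Of the 11 vascular and fibroblast markers 10 were tested, and their fold changes were positive, with sums of 3007 to 7676 in shYthdf2 and 2355 to 5927 in shCtrl. Of the endothelial markers, Cldn5 was removed by the filter on low counts, with means of 0 in shYthdf2 and 0.366 in shCtrl, while Kdr (109 ± 17.9 and 61.2 ± 9.54), Cdh5 (130.4 ± 126 and 54.3 ± 40.3) and Pecam1 (29.5 ± 5.58 and 26.7 ± 4.57) were detected (SD, n = 3 each). Kdr was higher in every KD library, at a log2 fold change of 0.82 (adjusted p = 0.119 in edgeR). The part of vascular cells in the Efnb2 difference was not tested. Another 3 genes of unsettled status are annotated within its span on the same strand, with up to 26 counts each.

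Efnb1 (ENSMUSG00000031217), the X-linked ligand whose loss in humans causes craniofrontonasal syndrome, gave no detectable difference. Its normalized counts were 626, 781 and 675 in the KD libraries against 694, 920.3 and 722 in the controls. The groups overlapped, and library 2 was the highest of both. The means were 694 ± 79.3 and 779 ± 124 (SD, n = 3 each), with a log2 fold change of -0.17 (SE 0.15, adjusted p = 0.582 in edgeR). The shYthdf2 library was nevertheless the lower one at each number, by differences of -0.15, -0.24 and -0.10 on the log2 scale.

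Among the ephrin-A ligands, Efna5 (ENSMUSG00000048915) had the smallest p of the family. Ephrin-A5 repels retinal axons and helps order the retinotectal map. Its normalized counts were 177, 164 and 210.1 in the KD libraries and 118, 122 and 115 in the controls. The controls were tight, and each KD library exceeded them. The means were 184 ± 23.9 and 118 ± 3.38 (SD, n = 3 each), 155% of the control. The log2 fold change was 0.63 (SE 0.17), with an unadjusted p of 0.00699 and an adjusted p of 0.115 in edgeR. DESeq2 gave the same fold change with an adjusted p of 0.0354, where it called 7.67% of all genes. The value stayed between 0.52 and 0.72 over 15 alternatives, and the differences by number were 0.58, 0.42 and 0.86. Without both libraries numbered 2 it was 0.72 (edgeR adjusted p = 0.000531, 52.7% of all genes passed). Without shCtrl library 2 alone it was 0.65 (edgeR adjusted p = 0.0467, 18.3% of all genes passed).

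Efna2 (ENSMUSG00000003070) encodes ephrin-A2, which acts beside ephrin-A5 in the retinotectal map. Its normalized counts were 259, 380 and 305 in the KD libraries and 434, 523 and 399.9 in the controls. The highest KD library, number 2, lay just under the lowest control, number 4. The means were 315 ± 61.0 and 452 ± 63.7 (SD, n = 3 each), 69.6% of the control. The estimated log2 fold change was -0.52 (SE 0.18, adjusted p = 0.173 in edgeR). It was -0.57 (edgeR adjusted p = 0.000174) without the libraries numbered 2, where 52.7% of all genes passed. By number the differences were -0.74, -0.46 and -0.39.

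The clustered genes Efna1, Efna3 and Efna4 had the fewest counts. Ephrin-A3, which astrocytes present to EphA4 on dendritic spines in the hippocampus, is encoded by Efna3 (ENSMUSG00000028039). It had 68.0, 90.2 and 76.4 normalized counts in the KD libraries and 93.1, 93.0 and 115 in the controls. The groups did not overlap, with shYthdf2 library 2 just under the controls, and the means were 78.2 ± 11.2 and 100.5 ± 12.9 (SD, n = 3 each). The resulting log2 fold change was -0.36 (SE 0.21, adjusted p = 0.389 in edgeR). It was -0.53 (edgeR adjusted p = 0.0226) without the libraries numbered 2, where 52.7% of all genes passed.
Efna1 (ENSMUSG00000027954), first found as a gene induced by TNF in endothelial cells, had 71.1, 53.3 and 64.7 normalized counts in the KD libraries and 74.5, 122 and 57.1 in the controls. The groups overlapped around means of 63.1 ± 9.01 and 84.6 ± 33.6 (SD, n = 3 each), with shCtrl library 2 above all others. The log2 fold change was -0.43 (SE 0.32, adjusted p = 0.500 in edgeR). Without shCtrl library 2 it was -0.07, and without both libraries numbered 2 it was 0.03.
Efna4 (ENSMUSG00000028040), known from coronal craniosynostosis, was the lowest member. It had 29.3, 27.1 and 30.8 normalized counts in the KD libraries and 19.5, 30 and 30.8 in the controls. The means were 29.1 ± 1.83 and 26.8 ± 6.29 (SD, n = 3 each). A log2 fold change of 0.12 was estimated (SE 0.29, adjusted p = 0.848 in edgeR), and -0.07 without shCtrl library 1, so neither direction was detectable at this depth.
The 3 genes of the cluster thus gave -0.43, -0.36 and 0.12 side by side. Their neighbour Adam15, a metalloprotease gene 0.514 kb from Efna4 on the same strand, stood at a log2 fold change of -0.49 (adjusted p = 0.293 in edgeR). Antisense genes overlap Efna3 (Gm15998, at most 8 counts in a library) and Efna4 (4731419I09Rik, at most 11 counts, in shCtrl library 1, which held 22 raw counts of Efna4). Whether the reads kept their strand is not given in the sources used here.

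Levels were compared between genes as CPM (counts scaled to a common library total) per kilobase of annotated exon. In shCtrl, Efnb3 led with 34.6 ± 16.9, followed by Efnb2 at 14.2 ± 1.36, Efnb1 at 11.9 ± 1.89 and Efna2 at 11.2 ± 1.57 (SD, n = 3 each). A gap of 4.59-fold separated Efna2 from the low members, which were Efna1 at 2.44 ± 0.968, Efna3 at 2.18 ± 0.279, Efna5 at 1.55 ± 0.0442 and Efna4 at 0.883 ± 0.207. The ranges of Efnb2 and Efnb1, of Efnb1 and Efna2, and of Efna1 and Efna3 overlapped, and their order is not resolved. Efnb3 exceeded Efnb2 in all 3 shCtrl libraries, by a ratio of means of 2.43. With the median length of the annotated protein-coding transcripts in place of all exons, Efnb2 came first and Efnb3 second.
In shYthdf2 the ratio of Efnb3 to Efnb2 was 5.36, with 60.7 ± 1.04 and 11.3 ± 0.30 CPM per kilobase (SD, n = 3 each). Efna5, at 2.40 ± 0.313, stood above Efna1 and Efna3 in all 3 KD libraries, while it stood below both in all 3 controls. The overlaps of Efnb2 with Efnb1 and of Efna1 with Efna3 remained.

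Summed per exon length, the 8 ephrin mRNAs came to 93.8, 101 and 97.3 CPM per kilobase in the KD libraries and to 68.4, 102 and 66.5 in the shCtrl libraries. Only shCtrl libraries 1 and 4 were low. Efnb3 made up 63.4%, 61.0% and 62.9% of the sum after KD and 36.9%, 53.1% and 36.8% in the controls. The ephrin-A ligands together held 14.1%, 15.8% and 15.2% in shYthdf2 and 25%, 20.6% and 24.9% in shCtrl. Their mean share was 15% ± 0.88 against 23.5% ± 2.49 (SD, n = 3 each), a difference of -8.48 percentage points without overlap between the groups, described with no test. Since shares sum to a whole, the lower ephrin-A share contains the higher Efnb3 level.

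**Figure D4:**
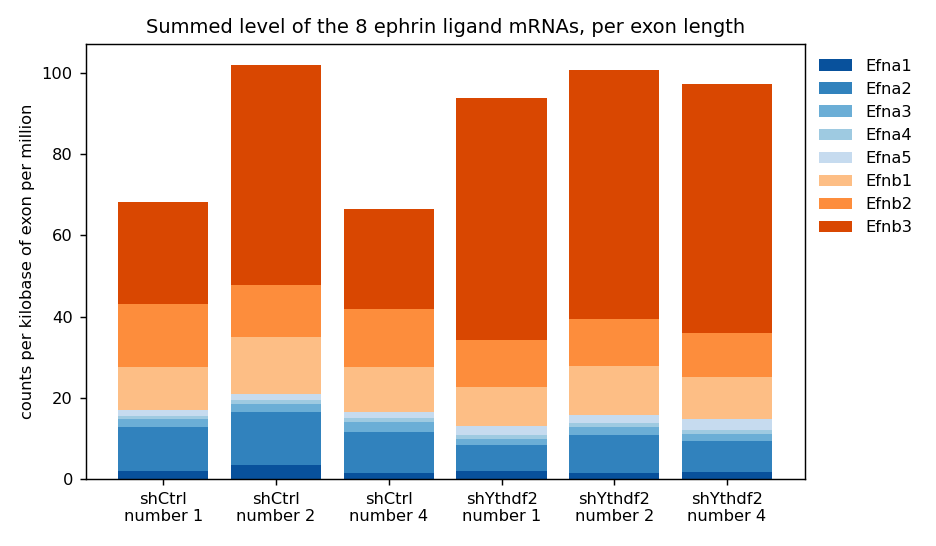
CPM per kilobase of exon of the 8 ephrin mRNAs, stacked, in each library (bars start at 0). The summed level was 66.5 and 68.4 in shCtrl libraries 4 and 1 and 93.8 to 102 in the other libraries, with Efnb3 the largest block in every library.

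The protein-coding genes whose log2 normalized counts followed each ligand most closely over the 6 libraries differed between members. These correlations were the highest among all the genes compared, carry no p, and reflect group and library number alike. For Efnb3 they were Nhsl2 and Olfml3 (Pearson's r 0.999 each), for Efnb2 Slmap (0.997) and Usp25 (0.996), and for Efnb1 Scnm1 and Bckdk (0.994 each). For Efna2 they were Capzb (0.998) and Mfsd14b (0.995), and for Efna5 Ltbp2 (0.994) and Cfap99 (0.992). The low members Efna1 (Ppfia2, 0.983, and Tmem68, 0.971), Efna3 (Cdk5rap3, 0.981, and Sf3b2, 0.974) and Efna4 (Agt, 0.938, and Thtpa, 0.932) had looser matches. Ltbp2, which encodes a TGF-beta binding protein of the matrix, was the only one of these 16 genes past the adjusted threshold, with a log2 fold change of 0.78 (adjusted p = 0.0496 in edgeR).

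The receptors that meet these ligands were all measured. Of the 14 Eph receptor mRNAs, all were tested, 10 with a positive and 4 with a negative log2 fold change (median 0.05), and 0 passed the adjusted threshold in edgeR or limma-voom, while DESeq2 called 2 (7.67% of all genes). At an unadjusted p under 0.05, 2 were higher and 2 lower (9.50% and 10.6% of all genes). Per exon length, Ephb1 was the highest receptor in shCtrl with 22.5 ± 0.697 CPM per kilobase and Epha6 the lowest with 0.166 ± 0.0207 (SD, n = 3 each). Epha4, which binds ligands of both classes, had 257, 196 and 258 normalized counts in shYthdf2 and 125, 163 and 122 in shCtrl, with a log2 fold change of 0.79 (SE 0.20, adjusted p = 0.0976 in edgeR). Ephb3 had 342, 337 and 357 against 188, 263 and 213, at 0.64 (SE 0.16, adjusted p = 0.1). For both, every KD library exceeded every control.
Epha3 and Epha6 differed the other way. Epha3 had 891, 1001 and 848 normalized counts in shYthdf2 and 1653, 966 and 1771 in shCtrl, where library 2 of the controls lay among the KD libraries, at a log2 fold change of -0.68 (SE 0.22, adjusted p = 0.154 in edgeR). Epha6, with 4.85 to 18.7 normalized counts in a library, was at -0.95 (SE 0.40, adjusted p = 0.243).

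Forward signalling below the receptors was followed with 16 genes for exchange factors, GAPs and adapters. All were tested, 8 with a positive and 8 with a negative log2 fold change (median -0.01). In edgeR and limma-voom 0 passed the adjusted threshold, DESeq2 called 3 (7.67% of all genes), and 6 had an unadjusted p under 0.05 in edgeR (20.1% of all genes). Chn2, a GAP that switches Rac off, had 3744, 4757 and 3753 normalized counts in shYthdf2 and 1464, 3326 and 1493 in shCtrl, at 0.96 (SE 0.32, adjusted p = 0.159 in edgeR). As for Efnb3, the control libraries 1 and 4 were the low ones. Kalrn, an exchange factor for Rac that acts below EphB receptors in spines, had 205, 155 and 196 against 519, 173 and 482, at -1.08 (SE 0.39, adjusted p = 0.182). Ngef (ephexin), an exchange factor for small GTPases below EphA4, was at -0.50 (SE 0.19, adjusted p = 0.213) and the adapter Nck2 at -0.42 (SE 0.11, adjusted p = 0.102).

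Reverse signalling was followed with 13 genes for PDZ proteins, adapters and cytoplasmic kinases. All were tested, 5 with a positive and 8 with a negative log2 fold change (median -0.18). Only the tyrosine kinase gene Abl1 passed the adjusted threshold, where 0.360% of all genes passed as lower. Each gene was put in a single list, so its place does not settle whether its protein acts below the ligand or the receptor. Abl1 had 1923, 1913 and 1886 normalized counts in shYthdf2 and 3198, 2708 and 3039 in shCtrl, with no overlap, and fell by a log2 fold change of -0.64 (SE 0.10, adjusted p = 0.0496 in edgeR). When the replicate number was added as a block, 2 genes of the list passed as lower, Abl1 and Sdcbp (adjusted p = 0.045 each in edgeR), beside 1.35% of all genes. Limma-voom called 0 of the 13 (0.139% of all genes) and DESeq2 2 (7.67%). Syntenin (Sdcbp), a PDZ protein that holds ephrin-B tails, had 1077, 1171 and 1084 against 1555, 1633 and 1569, at -0.51 (SE 0.09, adjusted p = 0.0554 in edgeR). The PDZ scaffold Grip1 was at -0.59 (SE 0.19, adjusted p = 0.154), with shCtrl library 2 among the KD libraries, and the Src family kinase Yes1 at 0.33 (SE 0.13, adjusted p = 0.230).

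The list of proteases that cut ephrins or Eph receptors held 7 genes. Of these, 6 were tested and Rhbdl2 was removed by the filter on low counts. Of the 6, 5 had a positive and 1 a negative log2 fold change (median 0.23). In edgeR and limma-voom 0 passed the adjusted threshold, while DESeq2 called 1 (7.67% of all genes), and 1 had an unadjusted p under 0.05 in edgeR (20.1% of all genes).

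**Figure D5:**
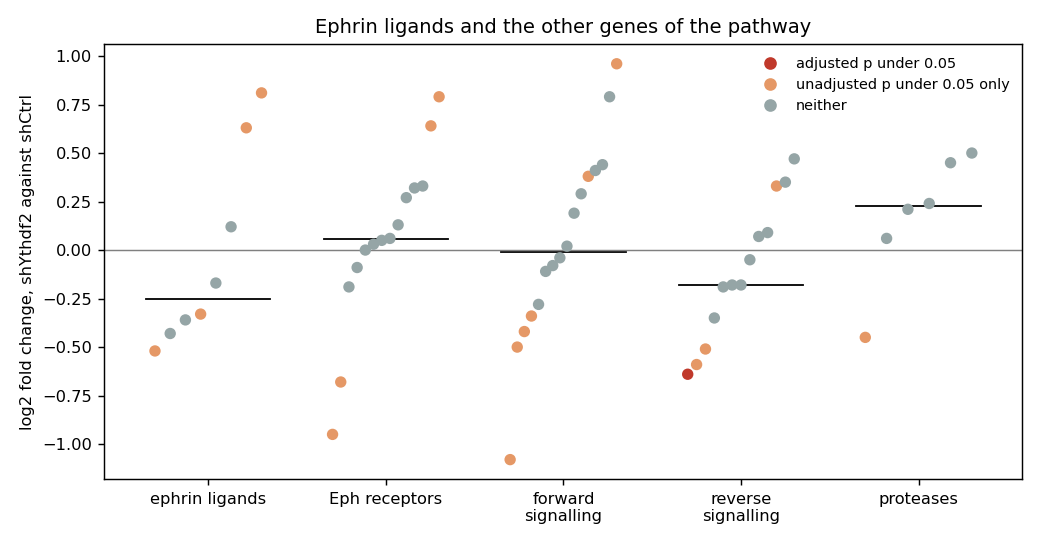
log2 fold change (vertical axis, shYthdf2 against shCtrl) of each tested gene of the ephrin ligands, Eph receptors, forward signalling, reverse signalling and proteases, in order within a list, with the list median as a line. Abl1 at -0.64 is the single gene past an adjusted p of 0.05, and the medians run from -0.25 for the ligands to 0.23 for the proteases.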

How the data were processed

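RNA-seq of 6 libraries of cultured GCs was used. The authors filtered the reads, aligned them (HISAT, TopHat2) to GRCm38 and obtained reads per gene from HTSeq, and they deposited these counts as whole numbers without normalization. The submitters' processing notes instead name mm9 and Bowtie 0.12.2; the gene identifiers carry no coordinates, so positions and lengths were taken from GENCODE M21 on GRCm38. The labels and the methods name different library kits, and strand is not given in the sources used here.

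Groups follow the library descriptions. Genes were kept by filterByExpr (minimum count 10, minimum total 15), which left 17214 of 53421. TMM normalization and the quasi-likelihood test of edgeR 4.0.16 (R 4.3.3) were used, and p-values were adjusted by the Benjamini-Hochberg method over all genes tested. Adjusted p-values are from this test unless another tool is named. The exact permutation test (two-sided) was added for single values. Levels used the union of annotated exons. The scripts were run on simulated data first.

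Alternatives were RLE size factors, no normalization factor, DESeq2 1.42.0, limma-voom (limma 3.58.1), other filters, a replicate block, a batch term for the libraries numbered 2, leaving these out, leaving out each library, and other gene lengths. Same-numbered libraries deviated together from their group means (correlations 0.252, 0.36 and 0.322 for numbers 1, 2 and 4). Deviations cancel out within a group, and libraries 1 and 4 of a group were alike. The pair numbered 2 alone could therefore give all of these correlations, which cannot show that the other numbers pair. Pairing by number was used for the differences by number and the block, not in the main test. The labels do not say what a number stands for.

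Named were the ligands, Ythdf1 to Ythdf3, the highest and lowest Eph receptor, pathway genes past the adjusted threshold and up to 4 more per list with the largest log2 fold change at an unadjusted p under 0.05, and for each ligand the 2 closest protein-coding genes with a mean of at least 100 normalized counts. Markers were named where a list moved with a library. Adam15, Cldn5, Kdr, Cdh5, Pecam1, Neurod1, Cntn2, Cbln1, Slc1a2 and the overlapping genes were added after their values were seen. Some genes these rules would name are not reported here. Members, lists and rules were chosen with earlier results of these data known. Precision is limited by counts for the low genes, and SDs cover counting error and the differences between libraries.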

Additional observations from a re-analysis of the deposited data

How the results depend on the processing

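Over 15 alternatives for each of the 8 ligands, 13 of 120 values newly passed the adjusted threshold and 2 changed sign. Another 105 kept their direction and stayed short of the threshold. No call could be lost, since 0 of the 8 passed in the main fit. The sign changes were those of Efna1 without both libraries numbered 2 (0.03) and Efna4 without shCtrl library 1 (-0.07). Without both libraries numbered 2, 52.7% of all genes passed. Log2 fold changes newly past the threshold there were -0.57 for Efna2, -0.53 for Efna3, 0.72 for Efna5, -0.42 for Efnb2, 1.28 for Efnb3 and -0.32 for Ythdf2. With a batch term for these libraries, 22.1% of all genes passed. The log2 fold changes newly past the threshold were -0.53 for Efna2, 0.63 for Efna5, -0.32 for Efnb2, 0.91 for Efnb3 and -0.56 for Ythdf2. With DESeq2 (7.67% of all genes) they were 0.63 for Efna5 and -0.58 for Ythdf2. With single libraries left out, the ranges were -0.64 to -0.07 for Efna1, -0.07 to 0.23 for Efna4 and 0.52 to 0.70 for Efna5. For Efnb2 the range was -0.40 to -0.27 and for Efnb3 0.61 to 1.29. Efna5, Efnb2 and Efnb3 passed without shCtrl library 2, where 18.3% of all genes did.

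The number of all genes past the threshold, 104, was 1320 with DESeq2, 24 with limma-voom, 639 without the filter, 232 with the replicate block, 3799 with the batch term and 9186 without both libraries numbered 2. With single libraries left out it ran from 0 to 3239. It was 3239 without shCtrl library 2, 829 without shYthdf2 library 2 and 0 without each of the others, where 1986 to 2120 genes had an unadjusted p under 0.05 in edgeR. The share of all genes past the threshold was 7.67% with DESeq2, 22.1% with the batch term and 52.7% without both libraries numbered 2. In this order, 1, 4 and 5 ligands passed, 2, 4 and 8 Eph receptors and 3, 6 and 12 forward signalling genes. For the reverse signalling genes the counts were 2, 5 and 11, and for the proteases 1, 2 and 4. With single libraries left out the ranges were 0 to 3 ligands, 0 to 4 receptors, 0 to 8 forward signalling genes, 0 to 5 reverse signalling genes and 0 to 2 proteases. The highest value of each was reached without shCtrl library 2, where 18.3% of all genes passed. For reverse signalling the count of 1 was 0 without a normalization factor and with limma-voom, and 2 without the filter and with the replicate block. With the replicate block, where 1.35% of all genes passed, 1 of the 7 GABAergic interneuron markers also passed, against 0 without it. The block changed no other call of the ligands, Ythdf2 and the lists, with 0 ligands past the threshold.

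With the median length of the protein-coding transcripts, the difference in ephrin-A share was -5.42 percentage points, and 4 of 8 genes kept their place in the shCtrl order. With single libraries left out the difference ran from -9.92 to -7.74 and 6 to 8 genes kept their place; without shCtrl library 2 Efna3 stood above Efna1. The cause of these changes was not tested. Depth limits Efna4 most, with about 30 counts a library.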
